A study of Mus musculus with 21 samples.

Results

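Vimentin knockout and wild-type RAW264.7 cells were compared at rest, across all genes of the RNA sequencing table that holds both genotypes. RAW264.7 is a mouse macrophage-like cell line. The comparison used 4 of the series' 21 samples, 2 libraries of Vim-KO cells and 2 of WT cells, all given PBS (a salt buffer used as vehicle) for 12 h. The same table holds 2 Vim-KO and 2 WT libraries given 1 µg/mL LPS for 12 h, which share the estimate of the spread, and a separate table holds 2 WT libraries given PBS for 24 h. Of 35550 genes listed, 11115 averaged 1 TPM or more across the 8 libraries of the 12 h experiment and were tested. TPM is an abundance per transcript length scaled to the library's total, so it holds no read depth. How the knockout was made, and whether it is 1 clone or a pool, is not given in the labels, and neither is whether the paired libraries of a genotype stem from different cultures. The p-values therefore measure a spread between libraries that may be only technical.

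Vimentin is the intermediate filament protein of mesenchymal cells and of macrophages. Its filaments run from the nucleus to the cell surface, carry mechanical load, and position organelles, and vimentin is also released or exposed at the surface of activated macrophages. Transglutaminase 2, encoded by Tgm2 and the other protein the study is concerned with, cross-links proteins and takes vimentin among its substrates.

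Vim itself was read first. It lies at chr2:13573927-13582826 on the plus strand (GRCm38). Its level was 16.99 and 18.7 TPM in the Vim-KO libraries, against 1930 and 1877 TPM in the WT libraries, a log2 fold change of -6.66 ± 0.07 (SE; limma adjusted p = 1.01e-09). The groups lay far apart in the direction of the genotype labels, and the remaining Vim-KO signal was 0.93% of the WT mean. Tgm2 was 0.051 TPM in each Vim-KO library, against 3.33 and 3.25 TPM in the WT libraries (log2 -2.03 ± 0.15, limma adjusted p = 2.97e-05). Tgm2 was thus a low gene in the 12 h WT cells and nearly unread in Vim-KO cells. In the WT libraries given PBS for 24 h, whose values were scaled separately, Tgm2 had 15.74 and 20.96 TPM. Of the 5 other tested genes within 1 Mb of Vim, 1 passed the test. That gene, Hacd1, a fatty acid elongation enzyme, had 9.70 and 8.71 TPM in Vim-KO cells, against 3.15 and 2.02 TPM in WT cells (log2 1.53, limma adjusted p = 0.00047). Pter, Rsu1, Stam and Trdmt1 did not pass, with log2 fold changes between -0.22 and 0.21.

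Across all genes, 4782 of 11115 (43.0%) passed an adjusted p of 0.05 in limma on log2(TPM + 1). Of these, 1962 genes (17.7% of those tested) were higher and 2820 (25.4%) lower in Vim-KO cells. At least 2-fold differences were fewer and leaned further to the lower side, with 233 genes (2.1%) higher and 736 (6.62%) lower. The median log2 fold change over all genes tested was -0.05. None of the called genes had overlapping groups, but groups of 2 separate often: 34.1% of all genes tested had both Vim-KO libraries above both WT libraries and 43.3% had them below. With the WT replicate 1 library left out the count of called genes was 3186, and a replicate left out moved the count of higher genes by more than 1.5 times (1247 to 1292).

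**Figure D1:**
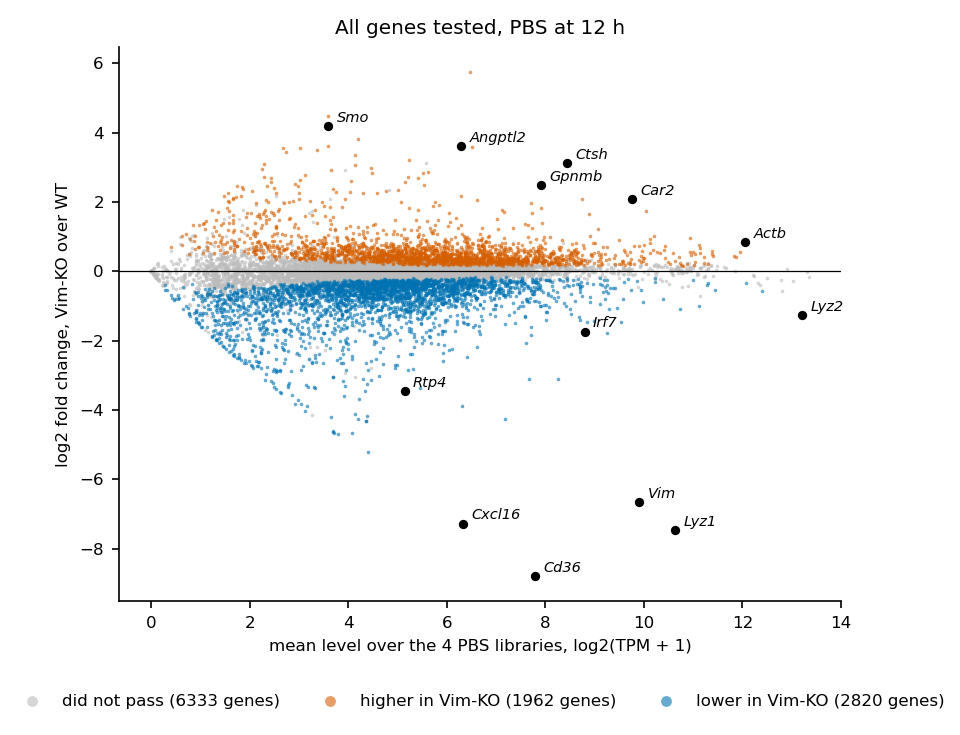
Log2 fold change (Vim-KO over WT, PBS at 12 h) against the mean level over the 4 PBS libraries in log2(TPM + 1), 1 point per gene tested. Orange points (1962 genes) were higher and blue points (2820 genes) lower in Vim-KO cells, grey points did not pass, and the named genes are in black; the largest falls, among them Cd36, Lyz1, Cxcl16 and Vim, reach well below the largest rises.

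The libraries of a group were close to each other. Log2 levels correlated at 0.990 between the 2 Vim-KO and between the 2 WT libraries, across genes, which are not independent replicates. Between 10859 and 10870 genes had at least 1 TPM in the Vim-KO libraries, against 11142 to 11163 in the WT libraries. Markers of other cell types (neutrophils, B cells, T and NK cells, fibroblasts, mast and erythroid cells) summed to at most 6.06 TPM per list in any of the 4 libraries, and those of dendritic cells, most of it Itgax, to 2.53 and 2.01 TPM in Vim-KO cells, against 10.6 TPM in each WT library. Defining markers of those types such as Ly6g, Pax5, Cd3e, Dcn and Gata1 were listed at 0 in all 4. RNA of the 12 h libraries was extracted on a single date, per the labels.

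Cd36, a scavenger receptor that takes up oxidised lipoproteins and fatty acids, was listed at 0 in both Vim-KO libraries, against 440.5 and 438 TPM in the WT libraries. Lyz1, a lysozyme that cleaves bacterial cell walls, had 18.3 and 15.6 TPM in Vim-KO cells, against 3126 and 3191 TPM in WT cells (log2 -7.46 ± 0.07, limma adjusted p = 1.01e-09). Both genes were among the abundant transcripts of WT cells, with no overlap between the genotypes. The close paralog of Lyz1, Lyz2, the main lysozyme of mouse macrophages, fell less, to 5704 and 5485 TPM, against 13323 and 13402 TPM in WT cells (log2 -1.26). How reads shared by the 2 lysozyme genes were divided is not stated, so the split between them is uncertain. Cxcl16, a chemokine that doubles as a scavenger receptor, had 0.059 and 0 TPM in Vim-KO cells, against 154.5 and 162 TPM in WT cells.

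Further genes went from a clear WT level to almost no signal. Basp1, a membrane-bound adaptor of the cell cortex, had 0.052 and 0.16 TPM in Vim-KO cells, against 38.2 and 42.2 TPM in WT cells (log2 -5.22). Flot2, a flotillin of membrane rafts, had 0.073 and 0 TPM, against 24.9 and 26.1 TPM in WT cells. Hpgd, the enzyme that inactivates prostaglandins, had 0.405 and 0.174 TPM, against 32.5 and 30.7 TPM in WT cells. None of these groups came near each other. Dapk1, a calcium-dependent death-associated kinase, and Psma8, a proteasome subunit best known from testis, also belonged to the lowest genes. Their Vim-KO values did not exceed 0.018 TPM, and their WT values lay between 22.8 and 25.5 TPM. Further lowest genes were Cfb, complement factor B, and Clec4a2, a C-type lectin receptor, at log2 -4.32 and -4.31.

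The highest genes were of more mixed kinds. Smo, the signal transducer of the hedgehog pathway, had 20.4 and 23.2 TPM in Vim-KO cells, against 0.19 and 0.30 TPM in WT cells (log2 4.20 ± 0.17, limma adjusted p = 1.57e-06). Angptl2, a secreted angiopoietin-like protein, had 143.9 and 143.2 TPM, against 11.1 and 10.3 TPM in WT cells (log2 3.62). Cd24a, a heavily glycosylated surface protein, had 160.1 and 176 TPM, against 13.997 and 12.3 TPM in WT cells (log2 3.58). In all 3 genes the lowest Vim-KO library was at least 10 times the highest WT library. Batf, an AP-1 family transcription factor, had 16.4 and 19.2 TPM in Vim-KO cells, against 0.70 and 0.64 TPM in WT cells. Plod2, a collagen lysyl hydroxylase, had 32.4 and 29.3 TPM, against 2.19 and 2.07 TPM in WT cells. Ctsh, the lysosomal protease cathepsin H, was the most abundant of the 12 highest at 639 and 605 TPM in Vim-KO cells, against 66.7 and 74.4 TPM in WT cells (log2 3.12).

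Klhl30, Guca2a, Slc9b2, Chst1 and Tnik completed the highest genes with log2 fold changes between 3.11 and 3.81. Exosc6, which encodes a subunit of the RNA exosome, had 26.8 and 17.3 TPM in the Vim-KO libraries and was listed at 0 in both WT libraries. It was also listed at 0 in the 4 libraries given LPS for 12 h and in the 2 WT libraries given PBS for 24 h. Of the libraries read here, its signal thus appeared in the resting Vim-KO libraries alone. How reads were assigned to this gene is not stated, so whether a 0 means absent RNA is uncertain. The predicted gene Gm5483, which the naming rule passes over, had a larger fold change than any of these (log2 5.75) at 166 and 182 TPM in Vim-KO cells, against 2.38 and 2.14 TPM in WT cells. It was singled out after its values were seen.

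**Figure D2:**
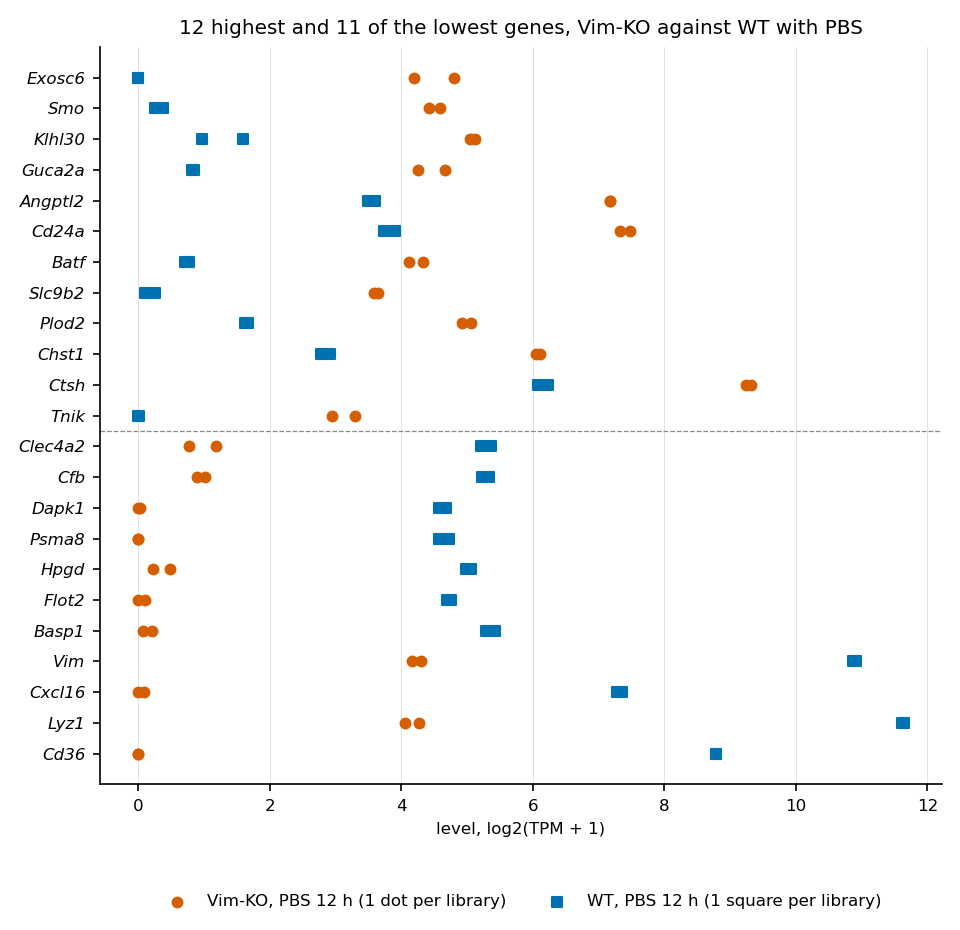
Level in each of the 4 libraries, in log2(TPM + 1), of the 12 highest genes (above the dashed line) and 11 of the lowest genes (below it), Vim-KO against WT with PBS at 12 h. Orange dots are the 2 Vim-KO libraries and blue squares the 2 WT libraries; the genotypes are apart in every row and the libraries of a genotype lie close together.

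Genes listed at 0 in both libraries of a genotype, with at least 5 TPM in both of the other, were counted over the whole table. In Vim-KO cells 10 genes were at 0, of which 4 are predicted genes. They included Cd36 and Psma8 (above), Ctla2b, Slc8a1 and Tfec. Slc8a1, a sodium-calcium exchanger, had 10.6 and 10.1 TPM in WT cells, and Tfec, a relative of the lysosomal regulator TFEB, had 9.58 and 9.57 TPM in WT cells. In WT cells 2 genes were at 0, Exosc6 and the predicted gene Gm12013. With LPS, 6 of the 10 genes were again at 0 in both Vim-KO libraries.

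Type I interferon-stimulated genes encode antiviral effectors and the sensors and factors of the interferon pathway itself, and macrophages keep a low tonic level of them through constant interferon signalling. Of 40 members tested, 38 were lower and 1 was higher in Vim-KO cells, against 25.4% lower and 17.7% higher among all genes tested. Their median log2 fold change was -1.79, against -0.05 over all genes tested, and 32 of them fell at least 2-fold. Irf7, the transcription factor that amplifies interferon production, had 206.9 and 203 TPM in Vim-KO cells, against 693 and 674 TPM in WT cells (log2 -1.73 ± 0.07, limma adjusted p = 1.34e-06). Rtp4, an interferon-induced chaperone and inhibitor of viral replication, had 5.22 and 4.66 TPM, against 60.7 and 66.9 TPM in WT cells (log2 -3.45). Oas2, which makes the activator of the antiviral nuclease RNase L, had 8.86 and 7.16 TPM, against 62.6 and 65.2 TPM in WT cells (log2 -2.85). These 3 genes fell in both knockout libraries to well under the lower WT library.

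Oasl2, Mx1 and Xaf1 fell by 3.35, 2.63 and 2.44 on the log2 scale. Mx1 and Mx2, and the Oas and Slfn genes among themselves, are close paralogs whose shared reads may be divided in ways not stated. The member that was higher was Ifitm3, a membrane protein that blocks viral entry, at 2271 and 2335 TPM in Vim-KO cells, against 1711 and 1635 TPM in WT cells (log2 0.46, limma adjusted p = 0.0072). It missed the threshold without WT replicate 2 (adjusted p = 0.052). Slfn1 did not pass, and was near 0 in both genotypes with PBS.

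The difference was smaller with LPS. Among the 38 members lower at rest, the interaction (the genotype difference with LPS minus that with PBS) passed in limma for 34, in each toward a smaller fall or a rise, where 20.6% of all genes tested passed in either direction. Members lower at rest were picked by the PBS difference that the interaction subtracts, so a lean to smaller differences follows in part from that choice, here and in the lists below. With LPS 15 of the 40 members were higher and 9 lower in Vim-KO cells, at a median log2 fold change of 0.04. Among all genes tested 44.7% passed there, 24.1% higher and 20.6% lower. Irf7 had 503 and 457 TPM in Vim-KO cells with LPS, against 536 and 579 TPM in WT cells with LPS. Rtp4 had 139.6 and 142 TPM in Vim-KO cells with LPS, against 140.4 and 140.8 TPM in WT cells with LPS, so the groups overlapped. Mx1 had 12.97 and 13.1 TPM in Vim-KO cells with LPS, against 6.375 and 5.08 TPM in WT cells with LPS.

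**Figure D3:**
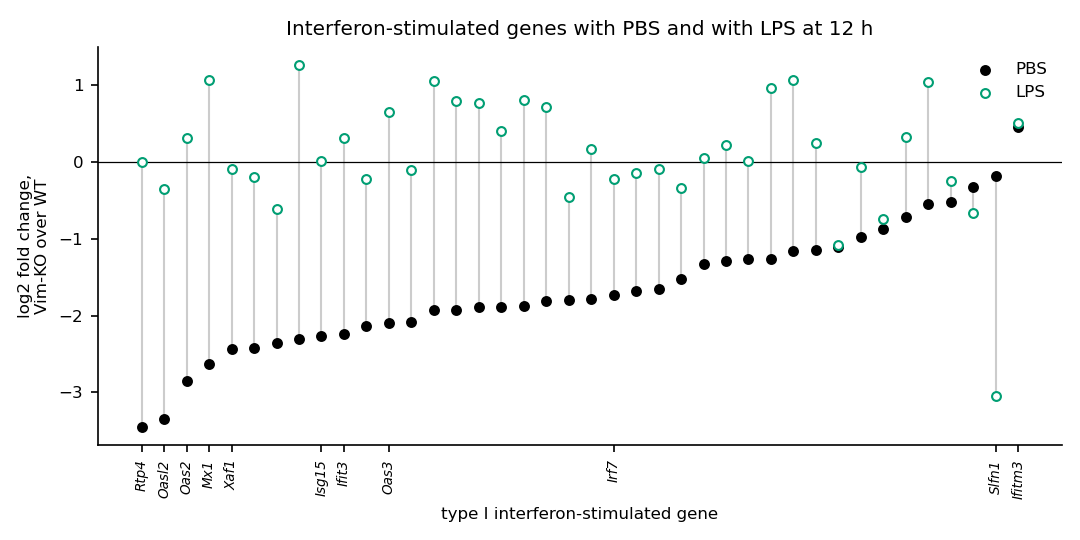
Log2 fold change (Vim-KO over WT) of the 40 type I interferon-stimulated genes with PBS (black) and with LPS (open green) at 12 h, 1 column per gene, ordered by the PBS value, with the genes described in the text named. With PBS 38 members lie below 0 and passed, while with LPS the members scatter around 0 at a median of 0.04.

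A few promoters of the list are shown for the letters of the interferon-stimulated response element, the site at which interferon regulatory factors bind. The search used its core, GAAA, 2 bases of any kind and GAAA, on both strands in the 250 bases before each gene's start in the RefSeq promoter table (GRCm38.p6). Of 32 members with a promoter in the table, 15 (46.9%) held a match, against 2.98% of all 32851 promoters. A match describes the letters and is not evidence of binding. The genes were picked for illustration after their values were seen. Isg15, a ubiquitin-like protein, has its window at chr4:156200819-156201068 (minus strand). Ifit3, which binds foreign RNA together with other IFIT proteins, has it at chr19:34583279-34583528 (plus strand), and Oas3 at chr5:120777660-120777909 (minus strand). Capitals mark the matches, which read TTTC, 2 bases and TTTC where the core lies on the other strand, as in Ifit3, and overlapping matches run together, as in Isg15.
Isg15: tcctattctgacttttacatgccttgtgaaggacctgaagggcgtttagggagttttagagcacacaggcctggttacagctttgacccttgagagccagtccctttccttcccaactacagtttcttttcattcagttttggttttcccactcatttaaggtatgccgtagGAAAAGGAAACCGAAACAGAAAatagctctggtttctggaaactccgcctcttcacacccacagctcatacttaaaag
Ifit3: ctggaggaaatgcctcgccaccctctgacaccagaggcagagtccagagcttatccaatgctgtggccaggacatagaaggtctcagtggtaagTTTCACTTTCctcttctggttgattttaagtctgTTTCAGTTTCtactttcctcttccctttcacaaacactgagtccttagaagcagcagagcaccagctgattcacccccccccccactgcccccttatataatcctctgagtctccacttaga
Oas3: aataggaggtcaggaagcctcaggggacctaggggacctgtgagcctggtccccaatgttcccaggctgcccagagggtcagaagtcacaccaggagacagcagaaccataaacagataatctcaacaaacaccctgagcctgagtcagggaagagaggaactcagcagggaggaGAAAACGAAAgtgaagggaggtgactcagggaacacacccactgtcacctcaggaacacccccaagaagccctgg
Isg15 had 3.65 and 4.39 TPM in Vim-KO cells, against 24.0 and 22.1 TPM in WT cells (log2 -2.26). Ifit3 had 0.39 and 0.99 TPM, against 6.74 and 6.99 TPM in WT cells (log2 -2.24), and Oas3 had 20.97 and 20.1 TPM, against 91.2 and 90.6 TPM in WT cells (log2 -2.09).

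Antigen presentation genes fell with them. MHC class I molecules show peptides made by the proteasome, and the immunoproteasome is the interferon-inducible form that makes them. Of 16 members, 14 were lower and 1 was higher in Vim-KO cells (25.4% and 17.7% of all genes tested). Their median log2 fold change was -0.89. H2-D1, a classical class I heavy chain, had 265.6 and 283 TPM in Vim-KO cells, against 749 and 737 TPM in WT cells (log2 -1.44 ± 0.065, limma adjusted p = 2.50e-06). B2m, the light chain shared by all class I molecules, had 1503 and 1456 TPM, against 2993 and 2889 TPM in WT cells (log2 -0.99). The immunoproteasome subunits Psmb9, Psmb8 and Psmb10 fell by 1.07, 0.79 and 0.37 on the log2 scale, and the peptide transporter subunit Tap1 by 1.18. H2-M3, a class Ib molecule for formylated bacterial peptides, went the other way with 69.2 and 70.3 TPM in Vim-KO cells, against 24.98 and 24.2 TPM in WT cells (log2 1.47). H2 genes are close relatives, so reads may be split between them. With LPS 3 of the 16 were higher and 5 lower.

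Of 10 tested genes of MHC class II and costimulation, 8 were lower and 1 was higher (25.4% and 17.7% of all genes tested). Cd74, the class II invariant chain, had 479.6 and 481 TPM in Vim-KO cells, against 769 and 725.5 TPM in WT cells (log2 -0.64). The costimulatory ligands Cd86, Cd83 and Cd80 fell by 1.76, 1.71 and 1.27 on the log2 scale from low WT levels, of at most 21.2 TPM.

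**Figure D4:**
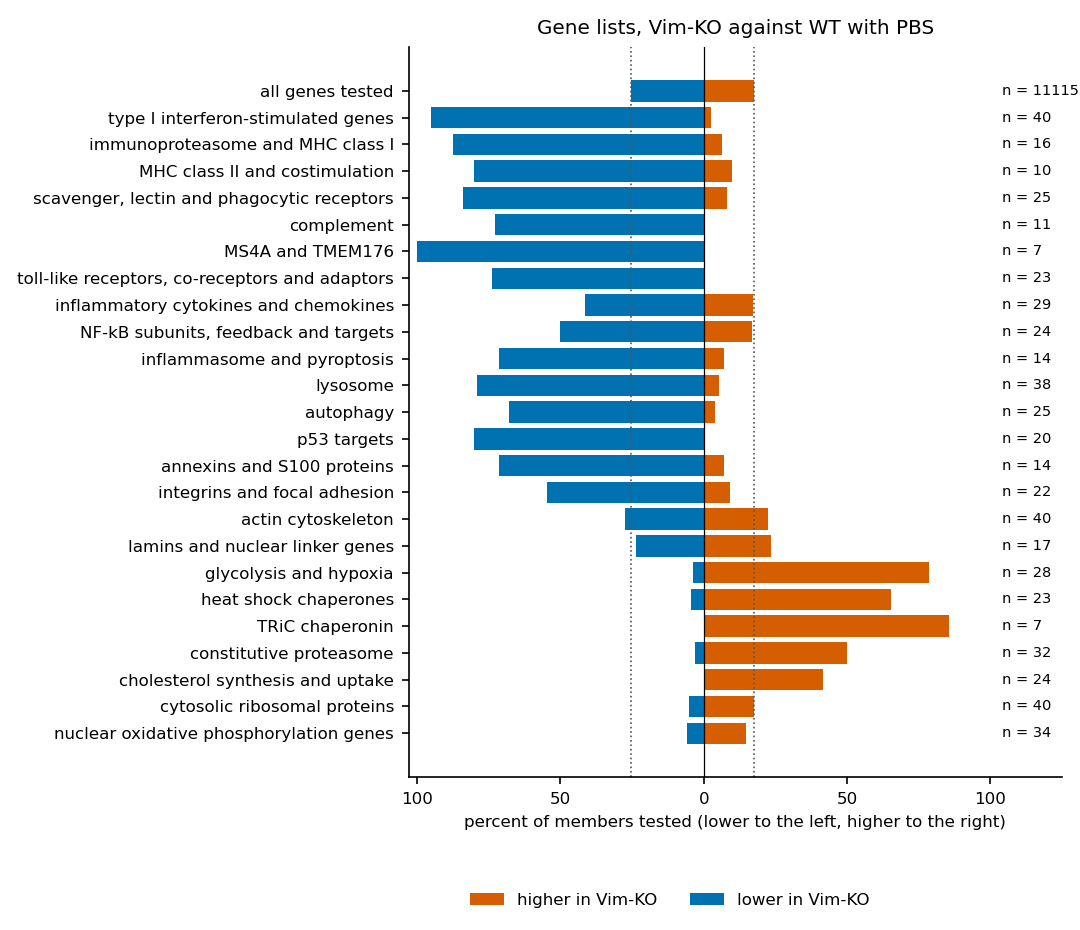
Share of the tested members of 24 gene lists, and of all genes tested, that were higher (orange, to the right) or lower (blue, to the left) in Vim-KO cells with PBS, in percent; n is the number tested, and dotted lines mark the shares over all genes (17.7% higher, 25.4% lower). Interferon, antigen presentation, receptor, lysosome and p53 lists lie to the left, and glycolysis and chaperone lists to the right.

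Receptors by which macrophages recognise microbes and debris were widely lower. Of 25 scavenger, lectin and phagocytic receptor genes tested, 21 were lower and 2 higher in Vim-KO cells (25.4% and 17.7% of all genes tested). Their median log2 fold change was -0.85. After Cd36 the steepest were C-type lectins. Clec7a, the beta-glucan receptor dectin-1, had 1.17 and 0.71 TPM in Vim-KO cells, against 32.1 and 32.3 TPM in WT cells (log2 -4.11 ± 0.14, limma adjusted p = 8.09e-07). Clec12a, an inhibitory receptor for uric acid crystals, had 9.12 and 8.95 TPM, against 150.2 and 143 TPM in WT cells (log2 -3.88). Siglec1, the sialic acid receptor CD169, had 2.48 and 2.34 TPM, against 36.4 and 35.5 TPM in WT cells (log2 -3.44). In all 3 the higher Vim-KO library lay far below the lower WT library.

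The highest expressed members changed little. Tyrobp and Fcer1g, the signalling adaptors of these receptors, had log2 fold changes of -0.23 and -0.30, and both missed the threshold without Vim-KO replicate 1 (limma adjusted p of 0.124 and 0.10). Tyrobp missed it also without WT replicate 1 and with scaling between libraries, and Fcer1g without WT replicate 2. Trem1, an amplifier of inflammation, was one of the 2 higher members (log2 1.23), and the other was Trem3 (log2 0.63). With LPS 19 of the 25 were lower and 1 was higher in Vim-KO cells.

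Toll-like receptors detect microbial products and signal through MYD88 and TICAM adaptors. Of 23 genes of this group tested, 17 were lower in Vim-KO cells (25.4% of all genes tested), and the other 6 did not pass. The group's median log2 fold change was -0.60. Tlr4, the LPS receptor, had 14.2 and 12.8 TPM in Vim-KO cells, against 42.2 and 40.1 TPM in WT cells (log2 -1.54 ± 0.11, limma adjusted p = 2.09e-05). Tlr9, for DNA, and Tlr3, for double-stranded RNA, fell by 1.37 and 2.00 on the log2 scale. Tlr8 had 0 and 0.027 TPM, against 9.36 and 6.47 TPM in WT cells. Unc93b1, which escorts the nucleic acid sensors to endosomes, had 162.4 and 153.4 TPM, against 318.5 and 318.2 TPM in WT cells (log2 -1.01).

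Irak3, the brake of the pathway, had 1.44 and 1.06 TPM, against 14.1 and 13.4 TPM in WT cells (log2 -2.71). The LPS co-receptor Cd14 was 1048 and 1169 TPM in Vim-KO cells, against 1294 and 1266 TPM in WT cells, and did not pass (adjusted p = 0.080). The adaptor Myd88 had a log2 fold change of -0.06 and did not pass. With LPS 5 of the 23 genes of this group were higher and 8 lower in Vim-KO cells, at a median of -0.06. The interaction with LPS passed for 13 of the 17 lower members, all toward a smaller fall or a rise. Tlr9 was higher in Vim-KO cells with LPS (log2 1.06), while Tlr4 stayed lower (log2 -1.41).

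Complement genes showed 8 of 11 tested members lower (25.4% of all genes tested) and 3 that did not pass. Cfb and C2, which supply the protease of the alternative and classical C3 convertases, stood at 0.87 and 1.03 TPM (Cfb) in Vim-KO cells, against 39.4 and 36.6 TPM in WT cells. C2 stood at 2.98 and 4.09 TPM in Vim-KO cells, against 40.1 and 36.7 TPM in WT cells (log2 -3.13). C3ar1, the receptor for the C3a fragment, had 6.89 and 6.72 TPM, against 53.8 and 51.6 TPM in WT cells (log2 -2.78). Cfp, properdin, had a log2 fold change of 0.10 and did not pass. All 7 tested genes of the MS4A and TMEM176 families, small membrane proteins of myeloid cells, were lower. Ms4a6d, for instance, had 32.5 and 33.2 TPM in Vim-KO cells, against 110.4 and 108.6 TPM in WT cells (log2 -1.71), while Ms4a4c lost its call without either Vim-KO library (largest adjusted p 0.062).

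Inflammatory mediators split. Of 29 cytokine and chemokine genes tested, 12 were lower and 5 higher, where 25.4% of all genes tested were lower and 17.7% higher. The share of higher members was thus near that over all genes. Il1rn, the antagonist of interleukin-1, had 0.67 and 0.93 TPM in Vim-KO cells, against 35.1 and 32.1 TPM in WT cells (log2 -4.27 ± 0.10, limma adjusted p = 1.56e-07). The monocyte chemoattractant Ccl2 had 9.67 and 12.8 TPM, against 64.6 and 60.8 TPM in WT cells (log2 -2.39). Ccl5, a chemokine for T cells and monocytes, had 276.5 and 272.5 TPM, against 1003 and 883 TPM in WT cells (log2 -1.77). Ccl3, by contrast, a macrophage inflammatory protein, had 605 and 780.1 TPM in Vim-KO cells, against 165.5 and 155 TPM in WT cells (log2 2.09 ± 0.13, limma adjusted p = 9.77e-06).

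Tnf had 65.0 and 75.2 TPM, against 28.4 and 29.7 TPM in WT cells (log2 1.24). Csf2, which encodes GM-CSF, had 3.67 and 3.80 TPM, against 0.25 and 0.13 TPM in WT cells (log2 1.99). Ccl4 and Osm were the other 2 higher members. So the 5 that rose were Tnf, Osm, Csf2, Ccl3 and Ccl4, and the neutrophil chemokines Cxcl2 and Cxcl3 did not pass. The interaction with LPS passed for all 5, toward a smaller rise or a fall. Of the 12 members lower at rest, it passed for 10, in 3 of them toward a smaller fall or a rise. With LPS 21 of the 29 were lower and 3 higher in Vim-KO cells. Il1rn stood at 18.1 and 18.2 TPM in Vim-KO cells with LPS, against 2461 and 2776 TPM in WT cells with LPS.

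Of 24 NF-kB subunits, feedback genes and targets, 12 were lower and 4 higher, the latter near the share over all genes tested (25.4% lower, 17.7% higher). Birc3, an inhibitor of apoptosis and a component of TNF receptor signalling, had 11.8 and 10.8 TPM in Vim-KO cells, against 43.9 and 41.35 TPM in WT cells (log2 -1.82). Ier3, an early stress response gene, had 45.8 and 59.1 TPM, against 9.60 and 9.37 TPM in WT cells (log2 2.34). Rela, the main activating subunit, had a log2 fold change of -0.21 and did not pass. Of 14 inflammasome and pyroptosis genes, 10 were lower and 1 was higher. Gsdmd, which forms the pore of pyroptosis, had 54.6 and 52.7 TPM, against 115.5 and 110.5 TPM in WT cells (log2 -1.06). Nlrp3 and Aim2 did not pass. Of 10 genes of nitric oxide, itaconate and arginine metabolism, 5 were lower and 1 was higher, and of 8 antimicrobial protein genes 6 were lower. Acod1, which makes itaconate, had 17.8 and 17.2 TPM, against 56.5 and 58.9 TPM in WT cells (log2 -1.67). Ass1, which rebuilds arginine from citrulline, had 1.61 and 1.77 TPM, against 31.3 and 35.3 TPM in WT cells (log2 -3.67). Odc1, the first enzyme of polyamine synthesis, had 1534 and 1738 TPM, against 480 and 489 TPM in WT cells (log2 1.75), and lies on chromosome 12.

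Lysosomal genes formed a broad moderate fall. Of 38 tested, 30 were lower and 2 higher in Vim-KO cells (25.4% and 17.7% of all genes tested). Their median log2 fold change was -0.63. Ctsd, the aspartic protease cathepsin D, had 691 and 717 TPM in Vim-KO cells, against 1304 and 1310 TPM in WT cells (log2 -0.89 ± 0.07, limma adjusted p = 3.04e-05). Ctsb, a cysteine protease, had 935 and 1024 TPM, against 1702 and 1664 TPM in WT cells (log2 -0.78). Grn, the progranulin precursor, had 243.0 and 245 TPM, against 702 and 657 TPM in WT cells (log2 -1.47), and Ctsc, cathepsin C, fell by 2.18 on the log2 scale. The regulators Tfeb, Mitf and Tfe3, which drive lysosomal genes, fell by 1.03, 1.01 and 0.37. The 2 higher members were Ctsh (above) and Gpnmb. Gpnmb, a transmembrane glycoprotein of lysosome-rich macrophages, had 419.5 and 396 TPM in Vim-KO cells, against 72.6 and 71.8 TPM in WT cells (log2 2.48).

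Lamp1, a structural membrane protein of the lysosome, had a log2 fold change of -0.10 and did not pass, while Lamp2 fell by 0.92. The interaction with LPS passed for 11 of the 30 lower members, in 7 toward a smaller difference, and 25 of the 38 were also lower with LPS. A pair of lysosomal promoters are shown for the palindrome TCACGTGA, the core of the motif that TFEB and its relatives recognise. It was found in the 250 bases before the start of 5 of 31 members with a promoter in the RefSeq table (16.1%), against 0.785% of all 32851 promoters. Gla, alpha-galactosidase A, has its window at chrX:134601006-134601255 (minus strand) and Ctsd at chr7:142387828-142388077 (minus strand), with the match in capitals.
Gla: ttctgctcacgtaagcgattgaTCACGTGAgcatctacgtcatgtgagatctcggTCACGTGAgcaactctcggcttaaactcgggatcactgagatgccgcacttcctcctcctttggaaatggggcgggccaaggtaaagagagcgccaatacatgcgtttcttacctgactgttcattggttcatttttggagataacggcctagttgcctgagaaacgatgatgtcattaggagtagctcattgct
Ctsd: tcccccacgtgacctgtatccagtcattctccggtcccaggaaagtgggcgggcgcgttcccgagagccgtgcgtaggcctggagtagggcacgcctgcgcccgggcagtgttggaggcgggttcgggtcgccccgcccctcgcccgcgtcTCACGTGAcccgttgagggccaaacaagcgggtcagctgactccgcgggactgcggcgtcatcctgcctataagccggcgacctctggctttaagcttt
Gla had 15.3 and 13.3 TPM in Vim-KO cells, against 33.8 and 30.6 TPM in WT cells (log2 -1.12).

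Autophagy genes moved the same way, with 17 of 25 lower and 1 higher (25.4% and 17.7% of all genes tested). Sqstm1, the cargo receptor p62, had 164.1 and 167.3 TPM in Vim-KO cells, against 267 and 255.1 TPM in WT cells (log2 -0.65). Wipi1, a phosphoinositide-binding protein of the forming autophagosome, was the higher one at 24.5 and 27.4 TPM, against 3.89 and 5.21 TPM in WT cells (log2 2.29). Map1lc3b, the LC3B precursor, did not pass. The count of lower members was 9 to 13 with any 1 library left out, lowest without WT replicate 1.

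Targets of p53 had 16 of 20 members lower in Vim-KO cells (25.4% of all genes tested) and 4 that did not pass. The median log2 fold change of the list was -0.80. The death receptor Fas had 0.27 and 0.67 TPM in Vim-KO cells, against 9.43 and 10.1 TPM in WT cells (log2 -2.88 ± 0.14, limma adjusted p = 3.00e-06). Pmaip1, the BH3-only protein NOXA, had 3.49 and 3.08 TPM, against 24.5 and 21.7 TPM in WT cells (log2 -2.49). Cdkn1a, the cell cycle inhibitor p21, had 228.7 and 228.6 TPM, against 382 and 378 TPM in WT cells (log2 -0.73). Trp53 itself, at log2 -0.10, and Bax, at log2 0.01, did not pass. The interaction with LPS passed for all 16 of the lower members, in 15 toward a smaller fall or a rise, and 13 of the 20 were higher with LPS. Cdkn1a had 1550 and 1421 TPM in Vim-KO cells with LPS, against 498 and 566 TPM in WT cells with LPS, so its order turned round.

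Of 26 genes of S phase 9 were higher and 1 was lower, where 17.7% of all genes tested were higher and 25.4% lower. Of 26 genes of G2 and M phase 5 were higher and 5 lower. None of those that passed differed 2-fold. With any 1 library left out the higher count was 3 to 5 for S phase, lowest without Vim-KO replicate 2 or WT replicate 1, and 1 or 2 for G2 and M phase, with 2 only without Vim-KO replicate 2. The lower count of G2 and M phase was then 2 to 4, lowest without WT replicate 2, and that of S phase was 0 without Vim-KO replicate 2 or WT replicate 2. Mki67, the proliferation marker, and Top2a had log2 fold changes of -0.07 and 0.13 and did not pass. Of 15 genes of the BCL-2 family 8 were lower and 2 higher, with 5 or 6 lower with any 1 library left out, 5 without replicate 1 of either genotype. Bcl2a1a, a survival factor with near-identical copies (Bcl2a1b and Bcl2a1d, which did not pass), had 0.40 and 0.17 TPM in Vim-KO cells, against 11.9 and 10.8 TPM in WT cells (log2 -3.27), so the split between copies is uncertain.

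Besides Vim, 5 genes for intermediate filaments and their linkers were abundant enough to test. Plec, the linker plectin that ties vimentin to actin and to adhesions, had 68.9 and 66.0 TPM in Vim-KO cells, against 108.5 and 111.7 TPM in WT cells (log2 -0.70 ± 0.07, limma adjusted p = 0.00018). Nes, the intermediate filament protein nestin, had 6.04 and 6.48 TPM, against 1.77 and 1.74 TPM in WT cells (log2 1.40). Dst, Macf1 and Fam83h did not pass, and desmin, glial filament protein, peripherin and the keratins of the list were under the level tested. Lmna, the nuclear lamin A and C gene, had 377.3 and 378 TPM, against 724 and 730 TPM in WT cells (log2 -0.94). Of 17 genes of lamins and nuclear linkers 4 were lower and 4 higher, near the shares over all genes tested (25.4% lower, 17.7% higher). Without WT replicate 1 they were 2 lower and 2 higher, and without Vim-KO replicate 2 there were again 2 higher.

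Of 40 actin cytoskeleton genes, 11 were lower and 9 higher, near the shares over all genes tested (25.4% lower, 17.7% higher). With any 1 library left out the lower count was 6 or 7, and 6 without Vim-KO replicate 2 or WT replicate 1. Actb and Actg1, the cytoplasmic actins, had 5011 and 5907 TPM (Actb) in Vim-KO cells, against 3117 and 2950 TPM in WT cells (log2 0.84). Actg1 had 1465 and 1689 TPM, against 791 and 751 TPM in WT cells (log2 1.03). Zyx, the focal adhesion protein zyxin, had 62.6 and 67.1 TPM, against 18.3 and 18.4 TPM in WT cells (log2 1.77). The actin monomer binder Tmsb4x, on the other hand, had 1124 and 1055 TPM, against 2370 and 2271 TPM in WT cells (log2 -1.09). The differences in Actb, Actg1 and Zyx were smaller with LPS (interaction adjusted p of 0.0086, 0.0055 and 0.0068). Of 13 tubulin genes 3 were higher and 3 lower, again near the shares over all genes tested. Tubb2a fell most, by 1.97 on the log2 scale.

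Of 22 integrin and focal adhesion genes, 12 were lower and 2 higher in Vim-KO cells, and 1 higher when 1 or the other Vim-KO library was left out. Itgax, the CD11c chain, had 1.79 and 1.51 TPM, against 9.22 and 9.56 TPM in WT cells (log2 -1.97). The vitronectin receptor chains parted: Itgav had 28.4 and 27.8 TPM, against 89.1 and 79.9 TPM in WT cells (log2 -1.55), while Itgb3 had 3.37 and 3.67 TPM, against 0.27 and 0.29 TPM in WT cells (log2 1.82). Itga3, a laminin receptor chain, had 4.28 and 4.99 TPM, against 0.017 and 0.018 TPM in WT cells (log2 2.47). Among TGF-beta and matrix genes, 6 of 10 tested were lower and 1 was higher, and none was higher with any 1 library left out. The receptor Tgfbr1 had 10.4 and 9.36 TPM, against 37.5 and 35.4 TPM in WT cells (log2 -1.79). Spp1, the secreted matrix protein osteopontin, stood at 7359 and 8213 TPM in Vim-KO cells, against 7424 and 7522 TPM in WT cells, and did not pass. Of 14 matrix proteases and inhibitors 5 were lower and 2 higher, not far from the shares over all genes tested (25.4% lower, 17.7% higher). Plau, the urokinase protease, had 644 and 797 TPM, against 225.9 and 231 TPM in WT cells (log2 1.64), and its receptor Plaur rose too (log2 1.49).

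Of 14 annexin and S100 genes tested, 10 were lower and 1 was higher (25.4% and 17.7% of all genes tested). Anxa1, an annexin that limits inflammation, had 100.5 and 106.9 TPM in Vim-KO cells, against 316.3 and 314 TPM in WT cells (log2 -1.59 ± 0.06, limma adjusted p = 1.39e-06). Anxa3 was the higher member (log2 0.56), and S100a4, a calcium-binding protein at 2263 and 2369.8 TPM in Vim-KO cells, against 2573 and 2526 TPM in WT cells, did not pass.

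Glycolysis and hypoxia-responsive genes were mostly higher. Of 28 tested, 22 were higher and 1 was lower in Vim-KO cells (17.7% and 25.4% of all genes tested). Their median log2 fold change was 0.67. Ldha, which makes lactate, had 2482 and 2662 TPM in Vim-KO cells, against 1330 and 1309 TPM in WT cells (log2 0.96 ± 0.06, limma adjusted p = 1.73e-05). Slc2a1, the glucose transporter GLUT1, had 108.4 and 120.1 TPM, against 60.4 and 58.6 TPM in WT cells (log2 0.93). Slc16a3, the lactate exporter MCT4, had 205.1 and 250.8 TPM, against 96.5 and 92.0 TPM in WT cells (log2 1.26). The hypoxia targets Bnip3 and Ndrg1 had log2 fold changes of 1.90 and 2.00, and Bnip3 stood at 76.9 and 87.6 TPM, against 22.7 and 20.1 TPM in WT cells.

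Hif1a, the oxygen-regulated transcription factor, had 108.9 and 105.7 TPM, against 48.6 and 51.4 TPM in WT cells (log2 1.09), and lies on chromosome 12. Aldoc, the aldolase of brain, was the lower member at 7.31 and 7.83 TPM, against 22.7 and 25.7 TPM in WT cells (log2 -1.55). Pkm, the last enzyme of the pathway, had a log2 fold change of -0.12 and did not pass. With LPS 24 of the 28 were higher and 2 lower, at a median of 1.06. Of the 22 members higher at rest, 4 had both Vim-KO libraries above the 24 h as well as the 12 h WT libraries. For the others the rise at rest was thus relative to the 12 h WT libraries.

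Chaperone and proteasome genes that passed were mostly higher, by small steps. Over all genes tested 17.7% were higher and 25.4% lower. Of 23 heat shock chaperone genes, 15 were higher and 1 was lower, at a median log2 fold change of 0.37, and 12 of 19 off chromosomes 9 and 12 were higher. Hsp90aa1, the inducible HSP90, had 1471 and 1443 TPM in Vim-KO cells, against 732 and 804 TPM in WT cells (log2 0.92), and lies on chromosome 12. Hspa8, the constitutive HSP70, had 2342 and 2334 TPM, against 1560.5 and 1598 TPM in WT cells (log2 0.57). Of 7 subunits of the TRiC chaperonin tested, 6 were higher, with Cct3 at 642 and 643.5 TPM, against 483 and 478 TPM in WT cells (log2 0.42). With any 1 library left out that count was 3 to 5, lowest without WT replicate 2. Hsf1, the regulator of heat shock genes, did not pass. Of 32 subunits of the constitutive proteasome, 16 were higher and 1 was lower, at a median of 0.20, and the 3 with the largest changes, Psma3, Psmc1 and Psma6, lie on chromosome 12. Off chromosomes 9 and 12 it was 13 of 28, and with any 1 library left out it was 10 to 13 of all 32, with 13 only without Vim-KO replicate 1. The lower one then passed only without WT replicate 2. With LPS 3 of the 32 were higher and 7 lower.

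Of 24 genes of cholesterol synthesis and uptake, 10 were higher and the other 14 did not pass, with the count at 6 to 8 with any 1 library left out, lowest without Vim-KO replicate 2. Sqle, a rate-controlling oxygenase of the pathway, had 69.1 and 67.2 TPM in Vim-KO cells, against 38.4 and 39.5 TPM in WT cells (log2 0.79 ± 0.08, limma adjusted p = 0.00017). Fdps, which makes the farnesyl precursor, had 212.2 and 211.4 TPM, against 129.1 and 130.3 TPM in WT cells (log2 0.70). Of the 10 higher members of this list, 1 had both Vim-KO libraries above the 24 h as well as the 12 h WT libraries. Genes of cholesterol efflux and LXR targets had 5 of 14 lower and 1 higher, the higher one not passing with any 1 library left out. The lower count of this list was not far from the share over all genes tested (25.4% lower, 17.7% higher). Lpl, the lipoprotein lipase, had 384 and 412 TPM, against 1103 and 1077 TPM in WT cells (log2 -1.45), and the exporter Abcg1 fell by 1.31 on the log2 scale, while Apoe did not pass.

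Of 25 genes of the ATF4 and amino acid response, 9 were higher and 5 lower, with 5 or 6 higher with any 1 library left out, 6 only without Vim-KO replicate 1. Atf4 had 134.3 and 145.7 TPM in Vim-KO cells, against 91.4 and 91.3 TPM in WT cells (log2 0.61), and the serine synthesis enzyme Phgdh had a log2 fold change of 0.57. Atf3 and Ddit3, the stress factors downstream, fell by 2.21 and 1.68. Atf3 had 9.87 and 6.96 TPM, against 40.9 and 42.95 TPM in WT cells. Of 25 immediate early genes, 11 were lower and 9 higher. Among all genes tested 25.4% were lower and 17.7% higher. Fos had 8.93 and 6.19 TPM, against 55.3 and 52.1 TPM in WT cells (log2 -2.69), and Fosl1 had 21.7 and 23.1 TPM, against 7.765 and 9.06 TPM in WT cells (log2 1.32).

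Several other groups were mixed or flat, to be read against the 25.4% lower and 17.7% higher among all genes tested. NRF2 and thiol redox genes had 7 of 23 lower and 6 higher (3 with any 1 library left out), with Gpx1 at 336 and 337 TPM in Vim-KO cells, against 624 and 623 TPM in WT cells (log2 -0.89; chromosome 9). Iron and heme genes had 7 of 16 lower and 3 higher. Hfe, the iron-sensing class I-like protein, had 2.42 and 1.64 TPM, against 25.1 and 26.2 TPM in WT cells (log2 -3.15), and the ferritin chain Fth1 had a log2 fold change of -0.004. Of 12 metallothioneins and zinc transporters 3 were higher and 3 lower, each count falling to 1 without a Vim-KO library (replicate 2 for the higher, replicate 1 for the lower). Mt2 fell by 1.83 on the log2 scale and Mt1 did not pass. ER chaperones had 5 of 24 higher and 4 lower, with 2 or 3 higher with any 1 library left out (3 only without Vim-KO replicate 1) and 1 to 3 lower, lowest without WT replicate 1. Cytosolic ribosomal proteins had 7 of 40 higher and 2 lower, the share of higher members (17.7% of all genes) being near that of the background, and the 7 became 1 to 3 with any 1 library left out, 1 without replicate 2 of either genotype. The lower count was 1 without replicate 1 of either genotype.

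Nuclear oxidative phosphorylation genes had 5 of 34 higher and 2 lower. With any 1 library left out 2 to 4 were higher, lowest without Vim-KO replicate 2. The share of higher members was near that over all genes tested (17.7% higher, 25.4% lower). None of 13 mitochondrially encoded transcripts passed in limma, at an adjusted or an unadjusted p of 0.05, with a median log2 fold change of -0.28. In the fit on the 4 PBS libraries alone 9 of the 13 were lower and none was higher.

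Of 4 Y-linked genes tested 1 was lower, and with any 1 library left out it passed only without Vim-KO replicate 1. That count was near the share over all genes tested (25.4% lower, 17.7% higher). Osteoclast-type genes, which RAW264.7 cells can express as precursors of bone-resorbing cells, had 7 of 11 tested lower and 3 higher. Acp5, tartrate-resistant acid phosphatase, had 0.79 and 0.37 TPM in Vim-KO cells, against 5.75 and 6.25 TPM in WT cells (log2 -2.16). Car2, carbonic anhydrase 2, had 1398 and 1415 TPM, against 342 and 317 TPM in WT cells (log2 2.09 ± 0.06, limma adjusted p = 4.44e-07). The receptor Tnfrsf11a (RANK) fell by 1.22 on the log2 scale.

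The labelled cell type was borne out by its markers in both genotypes. All 15 macrophage markers were expressed above the level tested. Among them 12 were lower in Vim-KO cells (25.4% of all genes tested), while 3 did not pass. They summed to 10620 and 10682 TPM in Vim-KO cells, against 20080 and 19918 TPM in WT cells, of which Lyz2 alone made up the larger part. Csf1r, the receptor for the macrophage growth factor, stood at 1187 and 1197 TPM in Vim-KO cells, against 1407 and 1367 TPM in WT cells, and did not pass (adjusted p = 0.069). Adgre1, the surface marker F4/80, had 28.7 and 24.7 TPM, against 91.3 and 89.3 TPM in WT cells (log2 -1.72). Fewer cells of a state and less RNA per cell cannot be told apart in such bulk libraries.

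Fold changes also followed position in the genome. On chromosome 12 the median log2 fold change was 0.48, and 243 of 402 tested genes were higher in Vim-KO cells. On chromosome 9 the median was -0.24, and 264 of 603 were lower. The other 18 chromosomes that were compared (1 to 19 and X without these) had medians between -0.11 and 0.003, with 12.4% to 21.8% of their genes higher and 21.3% to 28.0% lower. On chromosome 9 the fall lay before 80 Mb, a boundary placed after the values were seen. There the median was -0.38 with 211 of 363 genes lower, while beyond it the median was -0.02 with 53 of 240 lower. With LPS, in other libraries, the medians were 0.55 for chromosome 12 and -0.23 for chromosome 9 before 80 Mb.

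The WT libraries given PBS for 24 h were scaled separately and extracted on another date. Set against them, chromosome 12 stood at a median of 0.53 in Vim-KO cells and 0.05 in the 12 h WT cells. Chromosome 9 before 80 Mb stood at 0.07 in Vim-KO cells and 0.46 in the 12 h WT cells. The other 18 chromosomes had medians from 0.0003 to 0.12 in Vim-KO cells and from 0.10 to 0.21 in the 12 h WT cells. Chromosome 9 before 80 Mb thus lay within that range in Vim-KO cells and above it in the 12 h WT cells. Chromosome 12 lay above it in Vim-KO cells and somewhat below it in the 12 h WT cells. The cause of these shifts was not tested. Without the genes of both chromosomes the interferon-stimulated genes had 36 of 38 lower, the lysosomal genes 27 of 34 lower, and the glycolysis and hypoxia genes 21 of 26 higher, an alternative chosen after seeing the data.

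**Figure D5:**
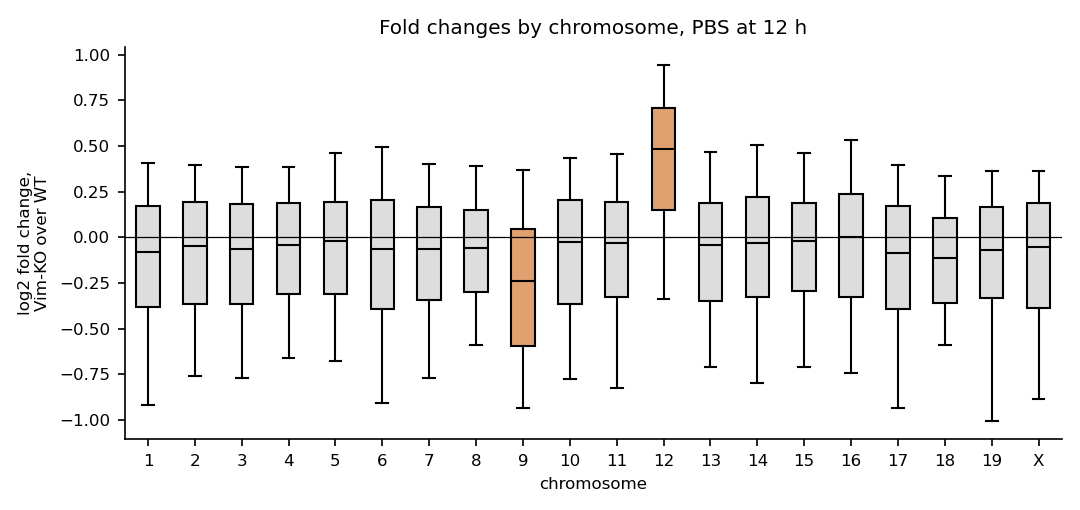
Log2 fold change (Vim-KO over WT, PBS at 12 h) of tested genes by chromosome; boxes span the quartiles, lines mark medians, and whiskers run from the 10th to the 90th percentile. Chromosome 12 (median 0.48) and chromosome 9 (median -0.24) stand apart from the others, whose medians lie between -0.11 and 0.003.

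The differences at rest were set beside the same genotypes with LPS, which share no libraries with them. Of the 736 genes at least 2-fold lower at rest, 574 (78.0%) also had both Vim-KO libraries below both WT libraries with LPS, where 31.4% of all genes tested did, and 73 had them above. Of the 233 at least 2-fold higher, 203 (87.1%) were also above with LPS, where 37.7% of all genes did, and 13 were below. Cd36 stayed at 0.036 and 0 TPM in Vim-KO cells with LPS, against 641 and 698 TPM in WT cells with LPS. Hpgd was near 0 in both genotypes with LPS, with 0.057 and 0 TPM in Vim-KO cells, against 0.48 and 0.42 TPM in WT cells.

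The level of WT cells at rest was itself not the same in the 24 h experiment, whose values were scaled separately. Cd36 had 10.01 and 7.42 TPM in WT cells there, against 440.5 and 438 TPM in the 12 h WT cells, and Vim had 419.7 and 442 TPM. Of the 38 interferon-stimulated genes lower at rest, 29 had both Vim-KO libraries below the 24 h as well as the 12 h WT libraries, and over the 736 genes at least 2-fold lower this held for 588. Irf7 was among the exceptions, with 37.2 and 35.8 TPM in the 24 h WT cells, below the 206.9 and 203 TPM of the 12 h Vim-KO cells. Lower members lay below the WT libraries of both experiments for 7 of 8 class II and costimulation genes and 19 of 30 lysosomal genes. It was 12 of 21 for scavenger, lectin and phagocytic receptors and 5 of 10 for annexin and S100 genes. For immunoproteasome and class I genes it was 6 of 14, for p53 targets 6 of 16, and for antimicrobial genes 2 of 6. For cytokine and chemokine genes it was 10 of 12. Genes lower at rest whose 24 h WT levels lay below their Vim-KO levels included Ccl5, Ctsd, Ctsb, B2m and Lmna. Their 24 h WT values were 21.2 and 20.5 TPM (Ccl5), 557 and 575 TPM (Ctsd) and 686 and 669 TPM (Ctsb). B2m had 1056 and 1048 TPM there, and Lmna 303.5 and 304.2 TPM. Of the 233 genes at least 2-fold higher, 185 had both Vim-KO libraries above the WT libraries of both experiments. Genes counted this way, here and in the lists above, were picked by their difference from the 12 h WT libraries. That choice sets part of the condition, and the share over all genes tested is not given, so these counts only describe the genes counted. Ctsh, one of the highest genes in the knockout, had 851.5 and 848.5 TPM in the 24 h WT cells, above its Vim-KO level. Zyx, with 126.2 and 128.6 TPM in the 24 h WT cells, likewise stood above its Vim-KO level there. Lyz1, with 3851 and 4034 TPM, and Clec12a, with 86.1 and 86.5 TPM, were high in WT cells of both experiments. Time and extraction date cannot be told apart as sources of these differences between WT libraries.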

How the data were processed

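RNA of RAW264.7 cells was sequenced from stranded mRNA libraries, per the labels' protocols. The authors deposited TPM per gene symbol. Per the submitters' processing notes, the tool was Salmon and the genome builds named are mm10 and GRCm38, and the versions and annotation are not given in the sources used here. TPM are scaled within a library and hold no counts, so depth is unknown and no counting error is given. All 8 columns of the 12 h data were used. Of the separate table with the 24 h libraries, 2 PBS columns gave side-by-side levels, and 11 columns of other groups were not used.

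Genes averaging 1 TPM or more across the 8 libraries were fitted by limma 3.58.1 (R 4.3.3) as log2(TPM + 1). The model had 1 mean per group and a trended prior variance, and p-values were adjusted by the Benjamini-Hochberg method over 11115 genes. Fold changes on this scale understate those of low genes. In simulated data for this comparison on 11115 genes, 87% of genes changed by 1 and 99% of those changed by 2 (log2) were called, with 12 false among 198 calls. The 200 changed genes there were drawn from those of higher level, with normal noise whose spread was smoothed over genes of like level. These rates thus do not cover low genes, or data with as many changes as were called here. Positions are from GENCODE release 21 of mouse (GRCm38), where 35418 of 35550 symbols matched, and the annotation behind the values may differ. Promoters are from RefSeq (GRCm38.p6).

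Genes are named by rule: Vim and Tgm2, the 12 highest and 12 lowest called genes without overlap and with at least 5 TPM in the higher group (predicted genes passed over), up to 5 called members with the largest change and the 2 with the highest WT level per list, genes listed at 0 in a genotype, and genes within 1 Mb of Vim. Some genes that the rule picks are not reported here. Other members are named as examples after their values were seen. The genes and the 50 lists (7 of them cell type markers) were chosen with earlier results of these data known. Alternatives were median-of-ratios scaling, a pseudocount of 0.1, no filter or one at 5 TPM, no trend, the PBS libraries alone, a replicate block, leaving out each PBS library, and a minimum log2 change of 1. Tables and figures were made with Python 3.11.15, pandas 2.3.3, numpy 2.4.6 and matplotlib 3.10.9.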

Additional observations from a re-analysis of the deposited data

Results flagged for a closer look

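For 19 of the highest and lowest genes, the genotype difference itself differed between PBS and LPS (interaction in limma, Vim-KO minus WT with LPS less the same with PBS, adjusted p between 2.51e-05 and 0.034, on the log2(TPM + 1) scale). Among genes lower in Vim-KO cells at rest, the difference with LPS was smaller for Hpgd (4.17), Vim (1.23), Cxcl16 (1.10), Dapk1 (0.80), Psma8 (0.67) and Lyz1 (0.63). It was larger for Basp1 (-0.81) and Cd36 (-0.58). Among genes higher at rest, it was smaller with LPS for Exosc6 (-4.50), Klhl30 (-2.47), Tnik (-2.30), Smo (-1.66), Cd24a (-1.54), Slc9b2 (-1.49), Angptl2 (-0.89) and Chst1 (-0.63). It was larger for Plod2 (1.45) and Ctsh (0.94) and, on this scale, for Batf (0.71). Batf averaged 17.8 TPM in Vim-KO cells with PBS, against 0.67 TPM in WT cells. With LPS it averaged 147.5 TPM, against 7.10 TPM in WT cells, so its ratio of TPM was not larger with LPS. The interaction values depend on the pseudocount where a genotype was listed at 0 or lay near or below 1 TPM with PBS or LPS. That covers Cd36, Cxcl16, Basp1, Hpgd, Psma8, Dapk1, Exosc6, Smo, Klhl30, Slc9b2, Tnik, Batf and Angptl2. Genes were picked by their difference with PBS, which the interaction subtracts, so a lean to smaller differences follows in part from that choice. Among the type I interferon-stimulated genes, 34 members lower at rest had a smaller fall or a rise with LPS by the same test.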

How the results depend on the processing

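The counts of called genes (4782, of which 1962 higher and 2820 lower) stayed within 1.5 times under scaling, pseudocount, filter, trend and PBS-only alternatives, between 4235 and 5656 in all. Scaling between libraries gave 2357 higher and 2550 lower (48.0% of calls higher, against 41.0%). A minimum log2 change of 1 left 969 genes, 233 higher and 736 lower, and 710 for the interaction (2292 without it). Leaving out 1 PBS library gave 3186 to 3427 called genes, 1247 to 1292 higher, 1910 to 2163 lower, and 1203 to 1439 for the interaction. Each of these fits has 3 PBS libraries, so fewer samples lie behind them, and the lone library is assumed to vary like the other groups. The replicate block gave 4393 genes (1763 higher, 2630 lower) and 1835 for the interaction. Libraries with the same number did not deviate together (correlation 0.05 for Vim-KO and WT with PBS, and between -0.22 and 0.10 over the 6 pairs of groups), so the samples share only a number. Of 258 named genes that were called, 222 kept the call under every alternative other than the minimum change, including all 24 highest and lowest, 36 lost it without some library, and none reversed. The list counts that moved by over 1.5 times without a library are given beside each list. Depth is unknown, so the limit it sets on low genes cannot be given.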
